A study of Mus musculus with 70 samples.

Results

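The comparison described here asks whether loss of the MctOatp pair of thyroid hormone transporters changed gene expression differently in the mouse striatum and in the mouse cerebral cortex. It rests on 25 of the 70 RNA-seq libraries of the series: 6 of striatum and 5 of cerebral cortex from MctOatp KO mice, and 7 of each tissue from their wild-type controls, named WTa. The libraries were taken by tissue and genotype label, leaving out both knockout libraries numbered 7 and cortex knockout library 1. MctOatp KO mice carry a combined knockout whose named genes include Slco1c1, and they were taken at postnatal days 21-23. Their wild-type controls (WTa) carry neither knockout; no source used here gives the age or sex of the WTa mice, or the sex of the knockouts. A further pair of models entered 1 later comparison: wild-type males of the C57BL/6J strain made hypothyroid by 0.02% methimazole plus 1% perchlorate in the dams' drinking water from embryonic day 9 to postnatal day 21 (MMI), and MctDio KO mice, a combined knockout whose named genes include Dio2, both taken at postnatal days 21-23 and set against untreated wild types (WT), whose age no source used here gives. No label names a driver that would confine either knockout to a cell type.

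Thyroid hormone reaches neurons mainly as T4 that is carried across brain barriers and turned into the active hormone T3 inside astrocytes, after which T3 binds nuclear receptors and changes transcription. Slco1c1 encodes OATP1C1, a T4 transporter of brain endothelium, choroid plexus and astrocytes. Dio2 encodes the enzyme that converts T4 to T3, and Dio3 the deiodinase that inactivates both hormones. In rodents the weeks after birth are the time when cortical and striatal circuits, myelin and fast-spiking interneurons mature under this hormone, and many target genes are known to respond only in some neurons.

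Each library held between 7802957 and 19699381 counts in genes, and the biological coefficient of variation between libraries of a group was 0.0769. The tissue labels held in the 25 libraries: 25 markers of striatal medium spiny neurons summed to 11859 to 14992 CPM (counts scaled to library size with TMM factors) in striatum and to 1095 to 1734 in cortex. On a scale from cortex (0) to striatum (1) made of 452 genes, the left-out knockout library labelled cortex 7 lay at 0.876 and that labelled striatum 7 at -0.0524, each among or near the libraries of the other tissue. The left-out cortex knockout library 1 had 39.7% of its reads mapped to several places, against 27.5% to 29.1% in the 25 libraries used. All of the following counts depend on leaving these libraries out: putting cortex knockout 1 back gave 247 called genes in place of 773, and using all 28 libraries as labelled gave 95. The samples are bulk tissue, in which fewer cells of a type and less RNA per cell cannot be told apart. No label says which mouse a library came from, so p-values measure the spread between these libraries.

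Slco1c1 (chr6:141524368-141570177, GRCm38) was reduced in both tissues. In striatum it had a lowest, median and highest level of 41.3, 44.2 and 51.3 CPM in the 6 knockout libraries against 77.0, 83.8 and 90.0 CPM in the 7 WTa libraries. In cortex the 5 knockout libraries had 48.1, 36.0, 51.3, 50.2 and 44.4 CPM, against 73.4, 89.4 and 93.0 CPM in WTa. Knockout and control libraries did not overlap in either tissue, as was true of 11.0% of all tested genes in striatum and 11.9% in cortex. The remaining level was 53.9% of WTa in striatum and 53.7% in cortex. The change in striatum minus the change in cortex was 0.01 ± 0.10 on the log2 scale (SE, adjusted p = 0.991). Reads over the gene persisted, and the sources used here do not say which part was deleted.

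Across 16304 genes tested, the change in striatum minus the change in cortex, called the tissue difference from here on, passed an adjusted p of 0.05 for 773 genes, or 4.74%. A gene past this threshold is said to be called. The tissue difference was higher (striatum above cortex) for 339 genes, 2.08% of those tested, and lower for 434 genes, 2.66%. Within tissues the knockout changed 4743 genes in striatum (29.1%; 2269 rose and 2474 fell) and 4001 in cortex (24.5%; 1921 rose and 2080 fell). The tissue differences were mostly moderate: among the 773 the size on the log2 scale had a median of 0.49, quartiles of 0.34 and 0.74 and a maximum of 3.80. A size of at least 1, a 2-fold unequal change, was reached by 32 genes with a higher and 77 with a lower tissue difference.

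Most called genes changed in 1 tissue past the threshold. In striatum alone 209 fell and 139 rose, and in cortex alone 110 fell and 86 rose. Another 108 fell in both tissues and 28 rose in both, with the larger change in striatum for 95 of these and in cortex for 41. Opposite directions were seen as well: 48 genes fell in striatum and rose in cortex and 32 did the reverse. The remaining 13 were called in neither tissue alone. The scatter of the striatal against the cortical change shows these classes as distance from the diagonal.

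**Figure D1:**
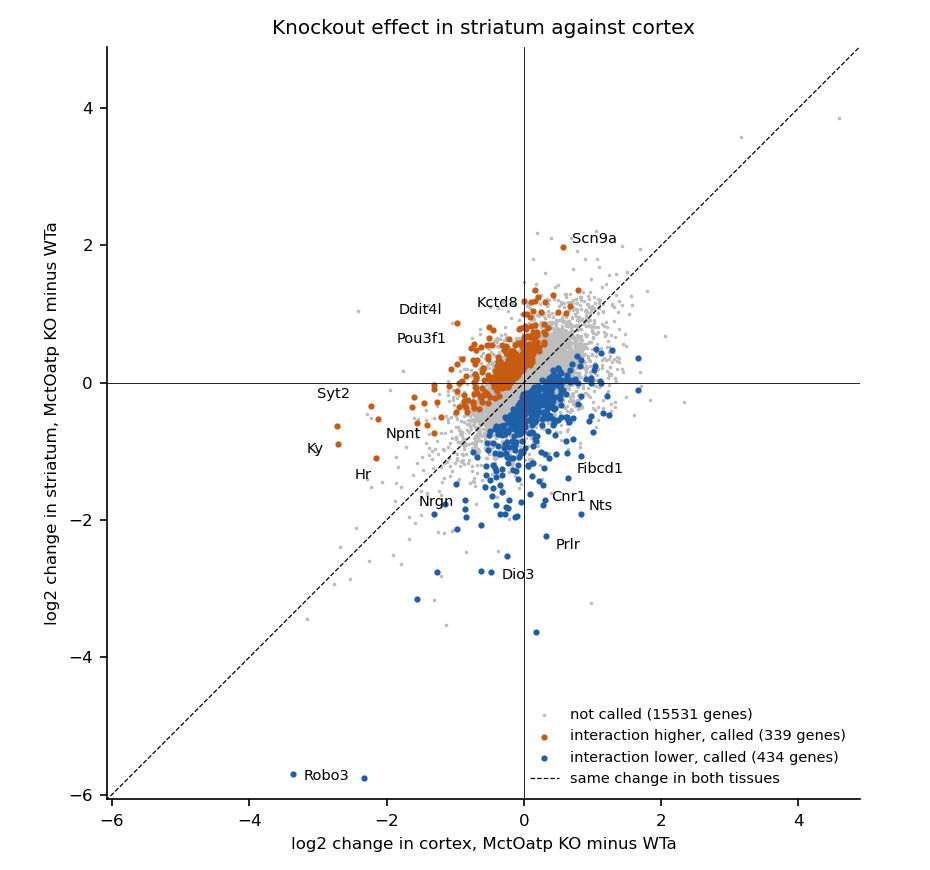
Each point is 1 of 16304 tested genes, placed by its log2 change (MctOatp KO minus WTa) in cortex (x axis) and in striatum (y axis); the dashed line marks an equal change in both tissues. The 339 genes with a called higher tissue difference lie above the line (orange), the 434 with a lower one below it (blue), and all others are grey. Robo3 lies at the lower left because it fell in both tissues, and Cnr1 and Nts lie at the lower right because they fell in striatum and rose in cortex.

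The same contrast was computed between the 2 wild-type groups, WTa and WT, neither of which carries a knockout. Of 16977 genes tested, 3 (0.0177%) differed between them in their tissue difference, 2 higher (0.0118%) and 1 lower (0.00589%): Sfxn1, Polr3e and Wdr66, the last pair named after their values were seen. Among the 773 called genes 2 were also called between the wild types, and the median size of the wild-type contrast was 0.11 on the log2 scale for the 773 against 0.09 for all genes. This contrast uses the same WTa libraries as the knockout comparison.

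Genes that fell more in cortex than in striatum led the higher side. Syt2 (chr1:134646677-134762593), the synaptotagmin that senses calcium in fast transmitter release, had 9.43, 12.5, 8.38, 12.4 and 7.88 CPM in the cortex knockout libraries against a lowest, median and highest level of 38.4, 44.7 and 56.5 CPM in WTa. In striatum it had 46.8, 50.2 and 60.1 CPM in the knockouts against 58.1, 65.3 and 75.9 CPM in WTa. The cortical groups lay far apart, while the striatal groups overlapped at 58.1 to 60.1 CPM. Expressed as a share of WTa, Syt2 stood at 21.4% in cortex (adjusted p = 1.46e-14) and 78.8% in striatum (adjusted p = 0.00471). Its tissue difference was 1.88 ± 0.14 (SE; adjusted p = 6.69e-10).

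Npnt, which encodes the extracellular matrix protein nephronectin, followed the same course. The cortex knockout libraries had 15.6, 18.6, 17.7, 15.4 and 16.4 CPM, against 64.8, 72.4 and 85.0 CPM in WTa, a fall to 22.8%. Striatum had the lower level to begin with, at 11.9, 15.4 and 20.4 CPM in WTa and 9.30, 10.5 and 12.3 CPM in the knockouts, or 69.1%. In the knockouts the level of Npnt in cortex thus came within the range seen in striatal WTa. The tissue difference was 1.60 ± 0.13 (adjusted p = 2.02e-10).

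Ky, a gene known from muscle that encodes a transglutaminase-like protein, fell to 15.3% in cortex and 53.6% in striatum, with a tissue difference of 1.81 ± 0.27 (adjusted p = 3.49e-05). Its cortical knockout libraries had 0.600, 1.69, 1.11, 1.49 and 0.641 CPM against 5.40, 7.22 and 9.69 CPM in WTa. Cited4, a transcriptional coactivator partner of CBP and p300, fell to 47.8% in cortex, from 8.92, 10.4 and 13.5 CPM to 5.45, 5.19, 4.99, 4.75 and 5.26 CPM. In striatum Cited4 had 10.9, 11.6 and 13.9 CPM in the knockouts and 8.62, 9.97 and 12.1 CPM in WTa, an overlapping pair of groups (adjusted p = 0.0969). Its tissue difference was 1.27 ± 0.14 (adjusted p = 6.48e-08). Cyp26b1, the enzyme that degrades retinoic acid, fell to 51.0% in cortex and had a striatal change of 0.28 ± 0.27 (adjusted p = 0.481). The tissue difference of Cyp26b1 was 1.25 ± 0.34 (adjusted p = 0.0329), and it missed the threshold once replicate number was a block (1.36, adjusted p = 0.0586).

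A second kind of gene moved in opposite directions. Ddit4l (chr3:137621612-137628333), an inhibitor of mTOR signalling, fell in cortex to 14.99, 20.00, 18.03, 20.8 and 19.7 CPM from 27.9, 39.4 and 43.6 CPM in WTa. In striatum it rose to 21.98, 26.2 and 30.9 CPM from 11.1, 13.3 and 18.7 CPM. Neither pair of groups overlapped, and the order of the tissues turned round: Ddit4l was higher in cortex in every WTa pair and higher in striatum in every knockout pair. The striatal change was 0.88 ± 0.13 (adjusted p = 7.14e-06), the cortical change -0.98 ± 0.12 (adjusted p = 1.24e-06) and the tissue difference 1.85 ± 0.18 (adjusted p = 6.70e-08).

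Pou3f1, a POU-domain transcription factor of developing neurons, rose in striatum from 59.6, 63.2 and 72.1 CPM to 84.1, 89.9 and 100.1 CPM. In cortex it fell from 21.4, 25.3 and 31.1 CPM to 15.8, 16.1, 13.6, 15.5 and 14.5 CPM. Both changes separated the groups, and the tissue difference was 1.28 ± 0.095 (adjusted p = 2.59e-11). Kctd8, an auxiliary subunit of GABA-B receptors, rose to 175% of WTa in striatum and fell to 70.1% in cortex (tissue difference 1.32 ± 0.14, adjusted p = 6.70e-08). Trhr2, a receptor for thyrotropin-releasing hormone, had the same signs at a low level, with 147% in striatum and 60.4% in cortex (1.29 ± 0.305, adjusted p = 0.00756).

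Scn9a, the sodium channel Nav1.7 best known from sensory neurons, rose chiefly in striatum. Its striatal level was 16.5, 25.2 and 34.1 CPM in the knockouts against 4.71, 6.51 and 8.35 CPM in WTa, or 394%, with no overlap. In cortex the knockout libraries had 6.49, 4.76, 6.05, 7.65 and 2.76 CPM against 2.99, 3.47 and 4.69 CPM, and 1 knockout library lay below all WTa libraries. The tissue difference of Scn9a was 1.40 ± 0.27 (adjusted p = 0.00134).

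On the lower side, Cnr1 (chr4:33924593-33948831), which encodes the CB1 cannabinoid receptor of striatal projection neurons and cortical interneurons, had the smallest p. Its striatal level was 102, 118 and 121 CPM in the knockouts against 374, 398 and 435 CPM in WTa, or 29.0% (adjusted p = 6.84e-24). The cortical knockout libraries had 234, 246, 238, 227 and 215 CPM against 174, 186 and 218 CPM in WTa, or 121% (adjusted p = 9.32e-05). Thus the striatal groups were far apart, and in cortex 1 knockout library lay below the highest WTa library. The tissue difference was -2.06 ± 0.071 (adjusted p = 5.84e-21). Striatum had the higher Cnr1 level in every WTa pair and cortex in every knockout pair.

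Nts, the precursor of the peptide neurotensin, also changed in opposite directions. It fell in striatum from 14.2, 15.8 and 20.5 CPM to 3.60, 4.46 and 4.99 CPM and rose in cortex from 1.79, 2.41 and 2.72 CPM to 3.82, 6.35, 2.77, 3.26 and 4.29 CPM. With these changes the knockout levels of the tissues met: striatal and cortical knockout libraries covered overlapping ranges, which the WTa libraries did not. The tissue difference of Nts was -2.73 ± 0.21 (adjusted p = 5.95e-11).

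Robo3 (chr9:37415669-37433246), an axon guidance receptor, fell in both tissues but further in striatum. It dropped from 36.1, 42.7 and 59.7 CPM to 0.424, 0.687 and 1.81 CPM in striatum, or 1.93% of WTa. Apart from number 3, at 1.81 CPM, the striatal knockouts had at most 0.838 CPM. The striatal share and the tissue difference of Robo3 thus rest on few knockout counts. In cortex Robo3 dropped from 78.2, 98.5 and 138 CPM to 9.59, 7.62, 10.3, 9.92 and 14.7 CPM, or 9.73%. No groups overlapped, and the tissue difference was -2.33 ± 0.37 (adjusted p = 0.000215). With all 28 libraries as labelled it was 0.03.

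Impg1, a proteoglycan known from the retina, fell to 14.98% in striatum and was at most 0.528 CPM in all cortical libraries of both genotypes, so its tissue difference (-2.11 ± 0.53, adjusted p = 0.0134) rests on few cortical counts. Fibcd1, a receptor for acetylated glycans, fell to 38.3% in striatum and rose to 156% in cortex, where knockout values ran from 16.5 to 33.3 CPM and WTa values from 10.4 to 23.1 CPM (-2.02 ± 0.255, adjusted p = 1.25e-05). Lipg, endothelial lipase, fell to 32.4% in striatum and had 107% in cortex (adjusted p = 0.74), with a tissue difference of -1.72 ± 0.29 (adjusted p = 0.000161). Slc22a3, an organic cation transporter for monoamines, fell to 46.7% in striatum and had 129% in cortex (adjusted p = 0.0564), giving -1.47 ± 0.195 (adjusted p = 3.12e-06).

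The other 4 of the 10 leading genes on the lower side had striatal groups that overlapped. Prlr, the prolactin receptor abundant in choroid plexus, fell in striatum from 4.80, 18.2 and 27.2 CPM to 1.82, 3.38 and 7.27 CPM (tissue difference -2.56 ± 0.59, adjusted p = 0.0106; -2.55 and adjusted p = 0.0664 in the fit of 67 libraries). Slc17a6, the vesicular glutamate transporter of thalamic neurons, fell from 3.05, 9.03 and 14.7 CPM to 0.954, 2.57 and 4.22 CPM (-1.84 ± 0.46, adjusted p = 0.0189). Trh, the precursor of thyrotropin-releasing hormone, fell to 60.7% in striatum and rose to 201% in cortex (-1.73 ± 0.37, adjusted p = 0.00441). The tight junction protein Cldn1 fell to 47.9% and rose to 179% (-1.90 ± 0.38, adjusted p = 0.00297). With replicate number as a block Slc17a6 had -1.59 (adjusted p = 0.0932) and Trh -1.70 (adjusted p = 0.0591).

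Markers of neighbouring regions and of choroid plexus were summed for comparison. The neighbouring-region markers tested, 15 genes of thalamus, septum and other nearby regions, summed to 137, 146 and 167 CPM in the striatal knockouts against 135, 205 and 229 CPM in striatal WTa, and to 145, 148 and 178 CPM against 125, 135 and 166 CPM in cortex. Of these 15, none had a called higher and 4 a called lower tissue difference (2.66% of all genes were lower): Trh, Prox1, Prkcd and Ntng1. With the replicate block 2 of the 15 were called, and leaving out single libraries gave 2 to 4, with the count moved by over 1.5 times in 13 of 25 cases. The 15 markers of choroid plexus and ependyma summed to 1033, 1644 and 3189 CPM in the striatal knockouts, 816, 2162 and 3617 CPM in striatal WTa, 41.1, 382 and 600 CPM in the cortical knockouts and 24.4, 205 and 274 CPM in cortical WTa. Prlr was the only one of these 15 called, against 3 with the block and 2 by DESeq2. At an unadjusted p under 0.05 edgeR counted 5 of the 15, and 2533 of all 16304 genes. The median tissue difference of these 15 was -1.36, against 0.00 over all genes. Their median change was -0.14 in striatum and 1.05 in cortex. No marker of either list was at 0 in all libraries of a group. The part of these structures in the result was not tested. In the contrast between WTa and WT, Slc17a6 had 1.14 ± 0.39 (adjusted p = 0.58).

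**Figure D2:**
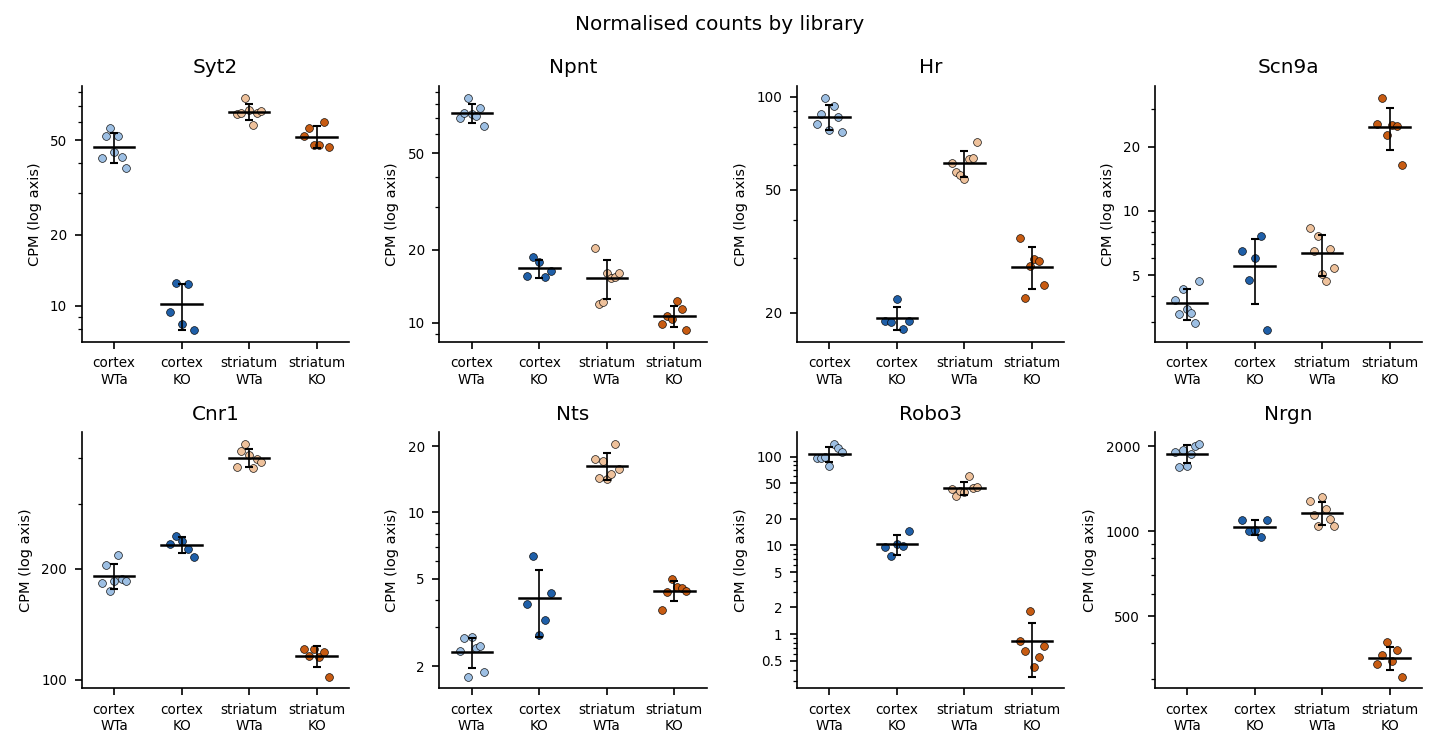
Normalised counts (CPM, log axis) of 8 genes in the 25 libraries, one point per library, with the mean and SD of each group. Syt2, Npnt and Hr fell further in cortex, Scn9a rose chiefly in striatum, Cnr1 and Nts fell in striatum and rose in cortex, and Robo3 and Nrgn fell further in striatum.

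The promoters of 3 of these genes are shown, with 3 different patterns. Syt2 fell chiefly in cortex, Cnr1 fell in striatum and rose in cortex, and Ddit4l did the reverse. Other patterns, among them a change in striatum alone, are not shown. All 3 genes are among the 6 below with the motif in a window, so they do not show how common it is. For Syt2 and Cnr1 the window that holds the motif below was chosen; 1 other window of Syt2 and 2 others of Cnr1 do not hold it. Each is the RefSeq window of GRCm38.p6 from 250 bases before to 50 bases after a transcript start, on the plus strand: chr1:134646362-134646661 for Syt2, chr4:33924014-33924313 for Cnr1 and chr3:137623422-137623721 for Ddit4l. Capitals mark the hexamer AGGTCA, the consensus bound by 1 thyroid hormone receptor molecule, here on the minus strand and so read as its reverse complement; its first printed base lies at -167 in Syt2, -8 in Cnr1 and -51 in Ddit4l, counted from the start.
Syt2: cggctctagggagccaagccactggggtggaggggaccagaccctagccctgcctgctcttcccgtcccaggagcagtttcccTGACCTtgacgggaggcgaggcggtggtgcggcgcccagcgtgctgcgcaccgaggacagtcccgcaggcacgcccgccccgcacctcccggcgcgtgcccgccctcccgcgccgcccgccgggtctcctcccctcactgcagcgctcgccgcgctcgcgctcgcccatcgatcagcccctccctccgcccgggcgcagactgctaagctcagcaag
Cnr1: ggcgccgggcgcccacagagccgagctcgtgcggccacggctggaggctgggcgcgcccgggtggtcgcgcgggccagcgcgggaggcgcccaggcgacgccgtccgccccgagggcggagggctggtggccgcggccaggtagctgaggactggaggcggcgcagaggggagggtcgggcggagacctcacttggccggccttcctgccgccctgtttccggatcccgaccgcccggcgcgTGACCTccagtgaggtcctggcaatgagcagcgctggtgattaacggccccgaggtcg
Ddit4l: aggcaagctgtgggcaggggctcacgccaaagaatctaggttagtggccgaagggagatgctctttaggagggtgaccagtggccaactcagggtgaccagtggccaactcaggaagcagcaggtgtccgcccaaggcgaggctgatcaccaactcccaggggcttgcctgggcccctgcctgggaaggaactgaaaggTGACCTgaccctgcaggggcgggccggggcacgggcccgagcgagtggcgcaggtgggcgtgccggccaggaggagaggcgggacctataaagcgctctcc
Of 25 genes looked up, the 20 leading ones with Hr, Dio2, Dio3, Nrgn and Sema7a, 21 had 28 windows. Hr, Pou3f1, Trhr2 and Lipg had no window and so were not searched. Of the 28 windows 6 held the hexamer on either strand: those of Syt2, Cnr1, Ddit4l, Npnt, Impg1 and Trh. Among all 32851 promoter windows 16.26% held it. A direct repeat of AGGTCA with NNNN between the copies, on either strand, was in none of the 28 windows and in 5 of all windows. These matches describe letters in a window and no binding was measured.

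Known thyroid hormone targets fell in both tissues, and 5 of 26 by amounts that differed between them. Of 26 genes listed as induced by the hormone, 20 fell and 2 rose in striatum, 20 fell and 1 rose in cortex, and the median log2 changes were -0.88 and -0.88, against 0.01 and 0.01 over all genes tested, of which 15.2% fell in striatum and 12.8% in cortex. In the tissue difference 5 of the 26 were called, 1 higher and 4 lower (all genes: 4.74%, 2.08% and 2.66%), with a list median of -0.08 against 0.00 over all genes. Nefm, a neurofilament subunit, had -1.42 ± 0.051 in striatum and -1.42 ± 0.054 in cortex. Aldh1a1, a retinaldehyde dehydrogenase, had -2.93 ± 0.075 and -2.77 ± 0.077, and Klf9, a transcription factor gene that is a direct receptor target, -0.89 ± 0.076 and -0.73 ± 0.080. Of the 10 genes listed as repressed by the hormone, 7 rose in striatum and 8 in cortex, against 13.9% and 11.8% of all genes. None had a called tissue difference by edgeR or DESeq2. At an unadjusted p under 0.05 edgeR counted 1 of the 10, and 2533 of all 16304 genes. With replicate number as a block edgeR called 2 of the 10. Col6a1, a collagen VI chain of this list, had 230% of WTa in striatum and 178% in cortex. These lists were chosen with earlier results of these data known.

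The 5 called genes went both ways. Hr (chr14:70552212-70573548), a nuclear corepressor gene and a classic target, fell further in cortex: the cortical knockout libraries had 18.8, 18.7, 22.1, 17.8 and 18.8 CPM against 76.6, 85.7 and 99.2 CPM in WTa, or 22.4%. In striatum Hr had 22.3, 28.8 and 34.8 CPM against 54.1, 61.1 and 71.1 CPM, or 46.8%, and knockout and control libraries overlapped in neither tissue. Its tissue difference was 1.07 ± 0.12 (adjusted p = 1.69e-07). Nrgn, the calmodulin-binding postsynaptic protein neurogranin, fell further in striatum, to 305, 354 and 403 CPM from 1039.9, 1139.5 and 1317 CPM, or 30.6%, against 55.0% in cortex (-0.84 ± 0.088, adjusted p = 5.37e-08). Sema7a, a membrane-anchored semaphorin, fell to 29.5% in striatum and 45.2% in cortex (-0.61 ± 0.081, adjusted p = 2.76e-06). Gls2, a glutaminase, had -1.84 ± 0.12 in striatum and -0.86 ± 0.096 in cortex, with a tissue difference of -0.97 ± 0.16 (adjusted p = 8.89e-05). The fifth, Dio3, is given with the deiodinases.

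**Figure D3:**
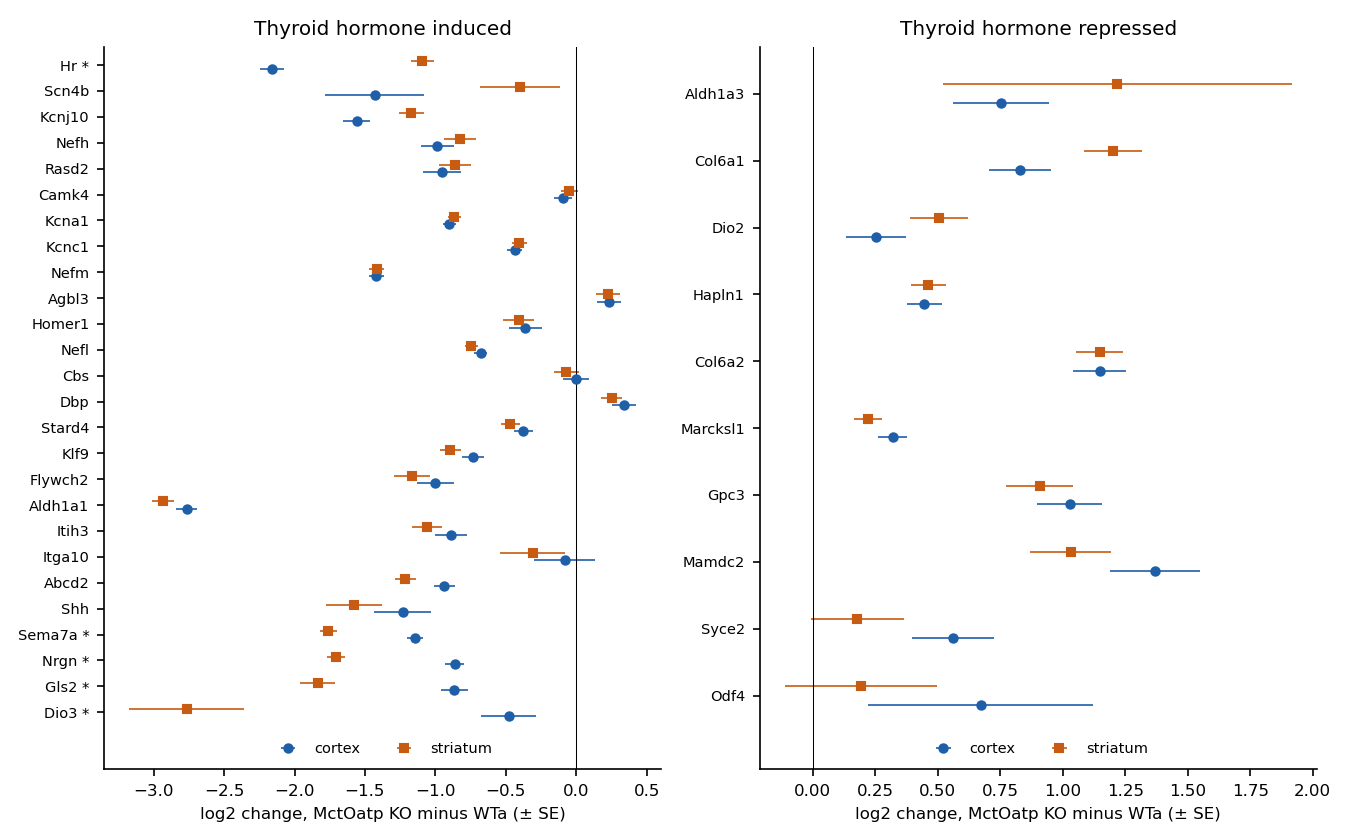
Log2 change (MctOatp KO minus WTa, ± SE) in cortex (circles) and striatum (squares) for 26 genes listed as induced (left) and 10 listed as repressed (right) by thyroid hormone, ordered by the tissue difference; an asterisk marks a called tissue difference. Hr fell further in cortex, Sema7a, Nrgn, Gls2 and Dio3 fell further in striatum, and no other gene has an asterisk.

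The deiodinase genes are given next. Dio2 (chr12:90724552-90738438) was higher in striatum, with 155, 181 and 253 CPM in the knockouts against 115, 133 and 151 CPM in WTa, or 142% (0.50 ± 0.12, adjusted p = 0.00198). In cortex the knockout libraries had 284, 225, 309, 250 and 405 CPM against 230, 246 and 266 CPM, overlapping groups with a change of 0.25 ± 0.12 (adjusted p = 0.132). Knockout number 6 was highest in both tissues. Taken over all libraries, the tissue difference of Dio2 was 0.25 ± 0.17 (adjusted p = 0.534), and it passed the threshold with replicate number as a block (0.30, adjusted p = 0.00207) but not in limma-voom with a random replicate block (0.27, adjusted p = 0.22). Without number 6 in either tissue it was 0.29 (adjusted p = 0.143).

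Within replicate numbers, which carry the same identifier in both tissues, the log2 level of Dio2 in striatum minus that in cortex ran from -0.69 to -0.41 in the 5 knockout pairs and from -1.002 to -0.70 in the 7 WTa pairs. These ranges did not overlap, as they did not for 586 of all tested genes (3.59%). Their means were -0.59 ± 0.11 (SD, n = 5) and -0.89 ± 0.11 (SD, n = 7), and the difference of 0.30 had a two-sided exact permutation p of 0.00253 (adjusted over the 2 genes tested so, 0.00505; the smallest p of the 792 splits is 0.00126). For Slco1c1 the same difference was 0.04 (exact permutation p = 0.715). Of the 773 called genes, 433 had paired differences that did not overlap.

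Dio3 (chr12:110279068-110281097) fell chiefly in striatum, at a low level. The striatal knockouts had 0 to 0.235 CPM with a median of 0.120 CPM, against 0.610, 0.896 and 1.31 CPM in WTa, or 14.7% (-2.76 ± 0.41, adjusted p = 2.53e-06). In cortex the libraries overlapped, at 1.85, 2.59, 1.33, 2.27 and 1.41 CPM against 1.74, 2.48 and 3.64 CPM (-0.48 ± 0.20, adjusted p = 0.0723). Its tissue difference was -2.28 ± 0.47 (adjusted p = 0.00167). The tissue differences of Dio2 and Dio3 thus had opposite signs, and that of Dio3 passed the threshold in the 25 libraries but not in the fit of 67 (-2.29, adjusted p = 0.0763).

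**Figure D4:**
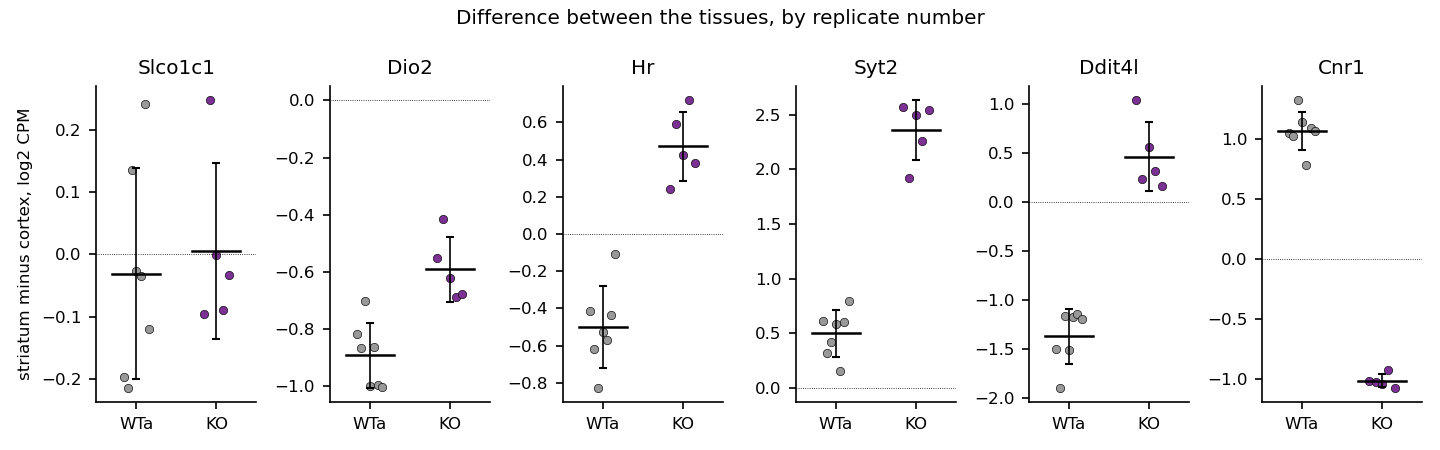
Log2 CPM in striatum minus log2 CPM in cortex for libraries of the same replicate number, for 6 genes, with one point per number (7 WTa, 5 KO), the mean and SD. Slco1c1 overlapped between genotypes, Dio2 ran from -1.002 to -0.70 in WTa and from -0.69 to -0.41 in KO, and Hr, Ddit4l and Cnr1 changed the sign of the tissue gradient.

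Among the other genes of hormone transport, conversion and reception, 23 tested in all, Rxrg joined Hr and Dio3 in having a called tissue difference. Rxrg, a retinoid X receptor that pairs with the thyroid hormone receptors and is enriched in striatum, rose in cortex to 10.4, 8.89, 8.10, 13.0 and 8.52 CPM from 4.11, 6.04 and 10.3 CPM, and had 93.3% of WTa in striatum (adjusted p = 0.453). Its tissue difference was -0.66 ± 0.17 (adjusted p = 0.0217), or -0.67 with replicate number as a block (adjusted p = 0.0999). Thra, the main T3 receptor of brain, rose in both tissues, by 0.20 ± 0.041 in striatum and 0.31 ± 0.042 in cortex, and Crym, a cytosolic T3-binding protein, by 0.74 ± 0.078 and 0.68 ± 0.085.

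Among neuronal markers, unequal changes were counted list by list against the 4.74% of all genes. Of 24 markers of cortical excitatory neurons, 6 had a higher and 1 a lower tissue difference, although the list median was -0.24. The count of 7 became 14 without striatum knockout 3 and 13 in limma-voom with a random replicate block. On the scale from cortex (0) to striatum (1) that library lay at 0.828, and striatum WTa 1 at 0.775. The summed list was 682, 818 and 1187 CPM in the striatal knockouts against 789, 1019 and 1235 CPM in WTa. In cortex it was 3322, 3622 and 3684 CPM against 3540, 3726 and 3831 CPM. The part of cortical tissue in the striatal libraries was not tested. Lamp5, a marker of upper-layer neurons and neurogliaform cells, fell in cortex from 205, 226 and 252 CPM to 125, 124, 110, 111 and 106 CPM and had 92.2% in striatum (0.86 ± 0.078, adjusted p = 2.16e-09). Rspo1, a Wnt pathway enhancer, rose to 237% in striatum and had 115% in cortex (1.04 ± 0.21, adjusted p = 0.00128). Scnn1a, an epithelial sodium channel subunit and layer 4 marker, had 0.55 ± 0.16 in striatum and -0.46 ± 0.14 in cortex (1.01 ± 0.21, adjusted p = 0.00238). The others were Cux1, Bcl6 and Tle4, transcription regulators with tissue differences of 0.32 to 0.46, and Etv1, a transcription factor of layer 5, at -0.51 ± 0.105.

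Of 25 markers of striatal medium spiny neurons, Pdyn had a higher and Chrm4 a lower tissue difference. Pdyn, the dynorphin precursor of direct-pathway neurons, rose in striatum from 101, 110 and 120 CPM to 199, 224 and 234 CPM, or 199%, and had 103% in cortex (0.95 ± 0.11, adjusted p = 3.55e-07); with all 28 libraries as labelled its tissue difference was -0.21. Chrm4, a muscarinic receptor of the same neurons, fell to 85.7% in striatum and rose to 131% in cortex (-0.61 ± 0.096, adjusted p = 4.81e-05). The summed list was 11859, 12533 and 13061 CPM in the striatal knockouts against 12919, 14667 and 14992 CPM in WTa.

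For parvalbumin interneurons and their perineuronal nets, 12 of 18 markers fell in striatum and 10 of 18 in cortex. Of all genes tested, 15.2% fell in striatum and 12.8% in cortex. The tissue difference was called for Syt2 and Kcns3, against 4 genes in limma-voom with a random replicate block. Kcns3, a modulatory potassium channel subunit, fell in striatum to 49.7%, from 3.28, 4.09 and 5.32 CPM to 1.53, 2.12 and 2.50 CPM. In cortex it had 98.9% of WTa, and its tissue difference of -0.99 ± 0.19 (adjusted p = 0.000746) was thus opposite in sign to that of Syt2. Among 19 markers of other interneurons, Npy and Slc32a1 were higher and Sst and Nos1 lower. Nos1, the neuronal nitric oxide synthase, rose in both tissues, to 126% in striatum and 179% in cortex (-0.51 ± 0.092, adjusted p = 0.000348). Npy, neuropeptide Y, fell to 76.3% in cortex and had 103% in striatum, while Sst, somatostatin, rose to 123% in cortex and had 95.8% in striatum.

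Among 30 axon guidance genes 3 had a higher and 6 a lower tissue difference, with a list median of -0.08; the fit of 67 libraries called 5. On the lower side, beside Robo3 and Sema7a, stood Sema5a, Unc5c, Nrp1 and Slit3, which encode a semaphorin, a netrin receptor, a semaphorin coreceptor and a Robo ligand. Sema5a fell in striatum from 75.1, 82.2 and 95.1 CPM to 53.5, 60.1 and 68.4 CPM and had 114% in cortex (-0.65 ± 0.10, adjusted p = 4.54e-05). On the higher side, Plxnd1, a semaphorin receptor, rose to 126% in striatum and fell to 88.3% in cortex (0.51 ± 0.081, adjusted p = 5.02e-05). Sema3a (0.44 ± 0.11) and Epha4 (0.34 ± 0.093), a repulsive ligand and an ephrin receptor, were the other higher ones.

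Neuropeptide and receptor genes gave 2 higher and 4 lower among 27. Npy1r, a neuropeptide Y receptor, fell to 52.6% in striatum, from 11.5, 13.1 and 19.5 CPM to 5.27, 6.87 and 10.7 CPM, and had 110% in cortex (-1.06 ± 0.17, adjusted p = 9.05e-05). Of 30 voltage-gated channel genes, 2 were higher, among them Scn9a, and 1 lower, 3 in all against 6 with the replicate block. The lower one, Scn3b, a sodium channel beta subunit, rose to 134% in cortex and had 108% in striatum (-0.31 ± 0.069, adjusted p = 0.00376). Of 26 synaptic genes Camk2b and Dlg4 were higher and Nrgn lower. Dlg4, which encodes PSD-95, had 86.7% in cortex and 99.5% in striatum (0.20 ± 0.056, adjusted p = 0.0303; 0.19 and adjusted p = 0.0620 with the block).

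Among lists of glia and of basic metabolism, counts are to be read against the 15.2% of all genes that fell and 13.9% that rose in striatum, and the 12.8% and 11.8% in cortex. Of 20 myelin genes, 19 fell in striatum and 20 in cortex, and no tissue difference was called; the list medians were -0.41 and -0.54. Of 34 nuclear-encoded respiratory chain genes, 21 and 27 fell, and again no tissue difference was called. Of 16 microglial genes 9 rose and 1 fell in striatum and 1 rose and 1 fell in cortex, but no tissue difference reached the threshold. At an unadjusted p under 0.05 edgeR counted 6 myelin, 2 respiratory chain and 4 microglial genes, and 2533 of all 16304 genes. DESeq2 called none of these 3 lists' members, and limma-voom with a random replicate block called 2 microglial genes and edgeR with the block 1.

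Of 25 genes of cholesterol synthesis and uptake 4 had a lower tissue difference. The count was 9 without cortex knockout 6, 7 with the replicate block, and 2 both in the fit of 67 libraries and without the libraries whose file name has a lane token. In striatum 23 of the 25 fell, and in cortex 16, and the list medians were -0.48 and -0.24. Cyp51 fell to 64.0% in striatum and 79.4% in cortex (-0.31 ± 0.083, adjusted p = 0.0213), and Sc5d to 68.3% and 86.4% (-0.34 ± 0.083, adjusted p = 0.0103); both encode enzymes of the pathway, as does Fdps (-0.37 ± 0.11).

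Single members of other lists were called as well; with the replicate block 3 astrocytic and 2 mural or leptomeningeal genes were called in place of 1 each. Slc6a11, the astrocytic GABA transporter GAT-3, fell to 66.0% in striatum and had 88.4% in cortex (-0.42 ± 0.10, adjusted p = 0.011). Jun, an AP-1 subunit and 1 of 22 immediate early genes, of which the fit without a block called no other, fell to 80.9% in striatum and rose to 132% in cortex (-0.70 ± 0.12, adjusted p = 0.000191). With the replicate block 6 of the 22 were called, and 3 in limma-voom with a random block. Col1a2, a fibrillar collagen of leptomeninges, fell to 69.3% in cortex and had 127% in striatum (0.87 ± 0.18, adjusted p = 0.00317), while the summed markers of mural and leptomeningeal cells were 345, 402 and 538 CPM in the striatal knockouts against 325, 387 and 478 CPM in WTa, and 258, 363 and 397 CPM against 339, 357 and 414 CPM in cortex; the part of these cells in the result was not tested. Sfxn1, a mitochondrial serine carrier, fell to 60.9% in striatum and had 109% in cortex (-0.84 ± 0.080, adjusted p = 5.61e-09). It is also 1 of the 3 genes that differed between the wild types, where WTa exceeded WT by 0.65 in striatum minus cortex, and the same WTa libraries enter both contrasts.

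Many of the called genes had a marked tissue gradient in untreated WT mice, whose libraries the comparison did not use. Of the 434 genes with a lower tissue difference, 20.5% were at least 2-fold higher in WT striatum and 21.0% at least 2-fold higher in WT cortex. The corresponding shares were 12.1% and 11.5% for the 339 higher genes and 7.82% and 6.80% for all tested genes. Of 260 called genes with a gradient, 128 (49.2%) changed toward the tissue where they were lower, against 48.6% of all 2384 genes with a gradient.

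The tissue difference was then set beside those of the other models in a fit of 67 libraries, which tested 16977 genes and called 503 for MctOatp KO (2.96%), 1310 for MMI (7.72%) and 694 for MctDio KO (4.09%). The shares called higher and lower were 1.37% and 1.59% for MctOatp KO, 3.36% and 4.36% for MMI and 1.99% and 2.10% for MctDio KO. The MctOatp comparison shares no library with the other pair, which share their WT controls. Of 501 genes called for MctOatp KO among those tested in both fits, 467 (93.2%) had the same sign in MMI, against 59.3% of all genes. Both comparisons called 316 of them, 63.1% of the 501 and 24.3% of the 1301 called for MMI, and 315 of the 316 had the same sign. For MctDio KO, 460 (91.8%, against 58.2% of all genes) had the same sign, and 233 were called in both, 46.5% of the 501 and 33.8% of 690, all with the same sign.

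All but Slc17a6 and Prlr of the 20 leading genes had the same sign in the 3 models. Cnr1 had tissue differences of -2.06 in MctOatp KO, -2.56 in MMI and -2.29 in MctDio KO, Syt2 1.88, 2.48 and 1.81, and Robo3 -2.33, -2.39 and -1.95. Nts had -2.73, -2.85 and -1.77. For other genes the values lay apart: Cited4 had 1.27 in MctOatp KO and 0.26 and 0.29 in MMI and MctDio KO, Slc17a6 -1.84, -0.05 and 0.27, Prlr -2.55, -2.61 and 0.88, and Dio3 -2.29, 0.04 and -0.22. None of the differences between models in this last group passed its own test (adjusted p from 0.054 for Cited4 against MMI to 1.00 for Prlr against MMI).

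**Figure D5:**
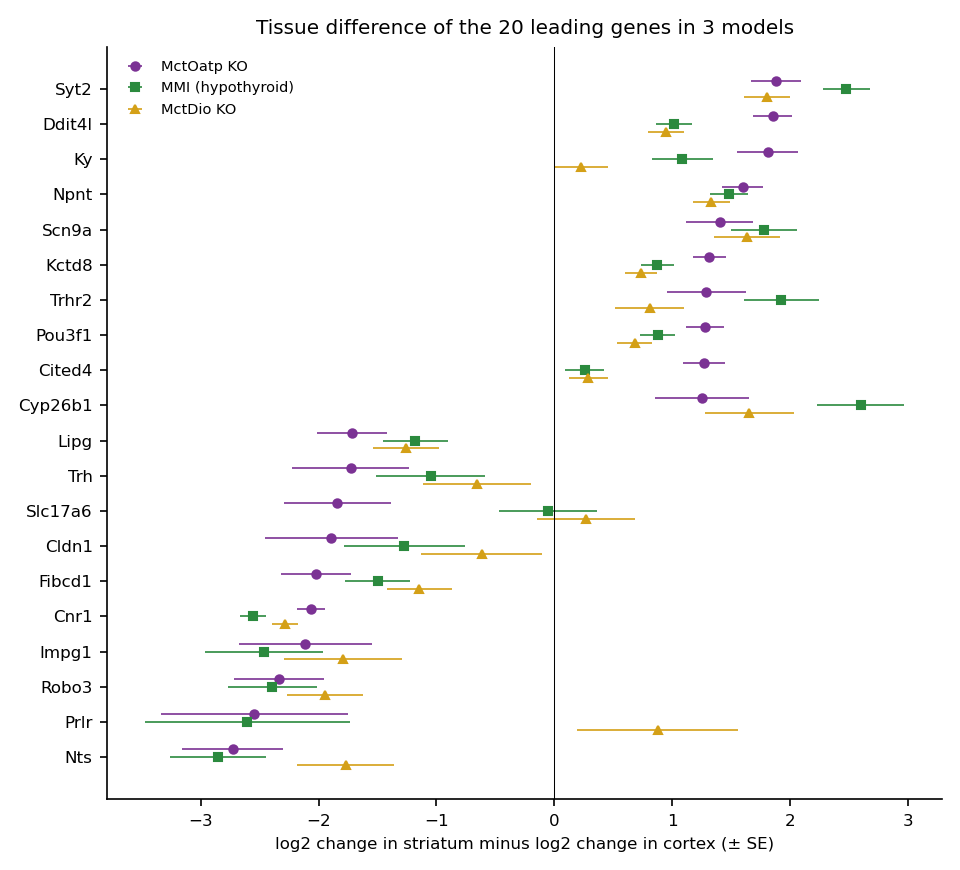
Tissue difference (log2 change in striatum minus log2 change in cortex, ± SE) of the 20 leading genes in MctOatp KO (circles), hypothyroid MMI (squares) and MctDio KO (triangles), from the fit of 67 libraries. Cnr1, Nts, Robo3, Impg1, Syt2 and Npnt lie on the same side at similar sizes in all 3, while Slc17a6 and Cited4 lie near 0 outside MctOatp KO and Prlr is positive in MctDio KO.

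Tested directly, few genes differed between the models. The MctOatp KO tissue difference minus that of MMI was called for 25 genes, 0.147% of 16977, with 19 higher (0.112%) and 6 lower (0.0353%). Tagln, a smooth muscle actin-binding protein, had 0.64 in MctOatp KO and -1.01 in MMI, a difference of 1.65 (adjusted p = 0.000394). Slc22a3 had -1.47 against -3.12 (1.65, adjusted p = 0.0427), and Tead2, a transcription factor of the Hippo pathway, 0.49 against -0.84 (1.33, adjusted p = 0.0329). The 3 leading lower genes were Herc6 (-0.91), Rras2 (-0.79) and Bcat1 (-0.65), each with an adjusted p of 0.0427. In the contrast between the wild types Slc22a3 had -1.15 (adjusted p = 0.062).

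Against MctDio KO 4 genes were called (0.0236%), all lower: Fhdc1, a formin family protein (-1.72, adjusted p = 0.004), and Jun (-0.82), Bcat1 (-0.74) and Sfxn1 (-0.60), each with an adjusted p of 0.0479. Sfxn1 was also called between the wild types, as given above. The comparisons with MMI and with MctDio KO both set a change from WTa against a change from WT. The wild-type difference therefore enters the values of both. Leaving out cortex knockout libraries in turn gave 6 to 34 called genes against MMI and 1 to 9 against MctDio KO; the counts without libraries 2, 3, 4, 5 and 6 were 16, 6, 13, 9 and 34 against MMI and 1, 2, 1, 1 and 9 against MctDio KO. Tagln against MMI and Fhdc1 against MctDio KO were called in all 5. Against MMI, Slc22a3 and Bcat1 lost their call in 4 of 5, Herc6 in 3, and Tead2 and Rras2 in 2, while Jun, Bcat1 and Sfxn1 lost their call against MctDio KO in 4 of 5.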

How the data were processed

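RNA-seq was read from 500 ng of total RNA with an unstranded kit as single 75-nt reads, per the labels' protocols. The authors deposited whole-number counts of reads for each gene, on GRCm38 per the submitters' processing notes. CASAVA, FastQC, Bowtie, TopHat, HTSeq and edgeR are named, without versions, in the submitters' processing notes, and the annotation release is not given in the sources used here. Each file held 38293 gene lines, of which 36429 matched GENCODE M21 for symbol and position, and 5 closing lines for unassigned reads, which were left out of library sizes and tests (no feature, 8.32% to 11.8% of reads; several places, 27.5% to 29.1%). Counts from opposite strands of overlapping genes, and from near-identical copies such as H2-D1 and its relatives, cannot be separated.

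The 25 libraries were fitted in 4 groups with edgeR 4.0.16 (R 4.3.3), using filterByExpr, TMM and robust quasi-likelihood F tests, with Benjamini-Hochberg adjustment over all 16304 genes. Standard errors were taken as |log2 change| over the root of F. CPM use TMM scaling, and log2 CPM of single libraries a prior count of 2. Other models were fitted over 67 libraries. DESeq2 1.42.0, limma 3.58.1, RLE scaling, other filters, left-out or restored libraries and a replicate block were alternatives. On simulated counts in which 200 genes were given a changed interaction, the test was checked for sign and size. No pair of libraries within a group was a repeat (67 pairs, lowest chi-square per degree of freedom 2.31).

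Replicate numbers carry the same identifier in both tissues in the deposited file names. Across 12 such pairs the deviations from the group means correlated at 0.0663 to 0.431, above 0.1 in 8 pairs, and the own number was the best match in 10. The numbers were therefore treated as pairing the tissues in the fits with a replicate block and in the differences within numbers. The main fit in 4 groups had no block. The fit with a replicate block is given where it changes a call among the genes followed through the settings. The members, lists and tests were chosen with earlier results of these data known. Named are Dio2, Dio3 and Slco1c1, the 10 largest called tissue differences in each direction with a mean of at least 2 CPM, per list at most 3 members, those of smallest p, and the 3 leading genes in each direction of the comparisons with other models. Other list members were named after their values were seen. Some genes, the second gene of the knockout among them, are not reported here.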

Additional observations from a re-analysis of the deposited data

Results flagged for a closer look

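Single libraries stood apart within their group for 6 of 92 groups examined, where chance alone gives about 1 in 20. The groups were those of the 20 leading genes and of Dio2, Slco1c1 and Dio3. Kctd8 had 6.34 CPM in cortex WTa 7, against 8.15 to 9.50 CPM in the other libraries of that group. Pou3f1 had 72.1 CPM in striatum WTa 4, against 59.6 to 64.1 CPM. Prlr had 4.50 CPM in cortex knockout 3, against 2.37 to 2.72 CPM. Robo3 had 1.81 CPM in striatum knockout 3, against 0.424 to 0.838 CPM, and 59.7 CPM in striatum WTa 5, against 36.1 to 45.2 CPM. Cnr1 had 102 CPM in striatum knockout 6, against 115 to 121 CPM. In each case the low or high library lay farther from its neighbour than the spread of the others, and the call of the gene was kept when that library was left out.

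Unequal knockout effects in striatum and cortex, tested as the interaction with edgeR, were the other reason for a closer look. The log2 differences (striatum minus cortex) were 1.88 for Syt2, 1.85 for Ddit4l, 1.81 for Ky, 1.60 for Npnt, 1.40 for Scn9a, 1.32 for Kctd8, 1.29 for Trhr2, 1.28 for Pou3f1, 1.27 for Cited4 and 1.25 for Cyp26b1. On the lower side they were -2.73 for Nts, -2.56 for Prlr, -2.33 for Robo3, -2.28 for Dio3, -2.11 for Impg1, -2.06 for Cnr1, -2.02 for Fibcd1, -1.90 for Cldn1, -1.84 for Slc17a6, -1.73 for Trh and -1.72 for Lipg.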

How the results depend on the processing

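The number of genes with a called tissue difference, 773, stayed between 636 and 1144 under RLE scaling (779), DESeq2 (924), no low-count filter (658), a mean of at least 1 CPM (779), leaving out the libraries with a lane token (636), knockout number 6 left out in both tissues (837, chosen after seeing the data), a replicate block (1022) and limma-voom with a random replicate block (1144). With all 28 libraries as labelled it was 95, with 1300 genes in striatum, 1264 in cortex and 12 list members in place of 4743, 4001 and 60. With cortex knockout 1 put back these were 247, 2238, 2162 and 26. In the fit of 67 libraries it was 503, with 35 list members. Through the settings 65 genes were followed: those named by rule and called in the main fit, with Dio2, Dio3 and Slco1c1. In the fit of 67 libraries 19 of these lost their call, among them Rxrg (adjusted p = 0.258), Slc6a11 (0.243), Ccnd2 (0.295), H2-D1 (0.202) and Col1a2 (0.0675). With cortex knockout 1 put back 27 lost it and 1 changed sign, and with all 28 libraries 43 and 3. Leaving out each library in turn gave 631 to 858 genes, 4132 to 4887 in striatum, 3308 to 4142 in cortex and 48 to 70 list members; between 604 and 728 of the 773 were called each time, and all 773 had the same sign. With all 28 libraries 94 of the 773 were called. Against MMI and MctDio KO, all 70 libraries as labelled gave 0 and 2 genes, and leaving out cortex knockouts 6 to 34 and 1 to 9 (chosen after seeing the data). The cause of these changes was not tested.

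Slco1c1, at 0.01, changed sign around 0: -0.000300 with RLE scaling, -0.00736 without the filter, -0.00139 without the lane-token libraries, -0.000606 without number 6, and -0.0804 to 0.0418 with each library left out. With all 28 libraries Robo3 had 0.0304, Pdyn -0.209 and Rps14 -0.442, and with cortex knockout 1 put back Rps14 had -0.514. With the replicate block Mapt had -0.164 (adjusted p = 0.0738) and Prkcd -1.15 (adjusted p = 0.0986). Beside these and those given with the results, the block changed no other call among the 65 genes followed. Other genes in the text, among them those not called in the main fit, were not followed one by one. Leaving out single libraries ended the call of Prkcd in 20 of 25 cases, Cdkn1a in 19, Hsp90aa1 in 16, Dhrs3 in 15, Dlg4 in 11, Mapt, Vcan and Fhdc1 in 10, Cyp26b1 in 8, Ccnd2 in 5, and Slc17a6, Rxrg, Cyp51, Errfi1 and H2-D1 in 1 each. The Dio2 difference between pairs was 0.302 with a prior count of 0.5 in place of 2. Depth limits genes near or under 1 CPM, such as Dio3, Impg1 and, in the striatal knockouts, Robo3.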

Other observations

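Several named list members not described so far also had unequal changes. Map1b and Mapt, microtubule-associated proteins of axons and dendrites, were the 2 called of 14 cytoskeletal genes, both lower. Map1b fell to 86.3% of WTa in striatum and had 111% in cortex (-0.37 ± 0.088, adjusted p = 0.00814). Mapt, which encodes tau, fell to 86.8% in striatum and had 97.8% in cortex (-0.17 ± 0.050, adjusted p = 0.0356); its call ended with the replicate block (-0.164, adjusted p = 0.0738), which left 1 of the 14, and in 10 of 25 cases of leaving out a library. Among 15 retinoid genes, Cyp26b1 and Dhrs3 were higher and Rxrg and Crabp2 lower, 4 in all against 2 with the block. The count was 0 in the fit of 67 libraries and without the libraries with a lane token, and 1 without the low-count filter. Leaving out single libraries gave 1 to 4, and in 16 of 25 cases the count moved past the limit used for the neighbouring-region markers. DESeq2 and limma-voom with a random replicate block each called 4. Dhrs3, a retinaldehyde reductase, fell to 78.4% in cortex and had 104% in striatum (0.41 ± 0.12, adjusted p = 0.0425), and Crabp2, a retinoic acid binding protein, had -1.71 ± 0.30 in striatum and -0.21 ± 0.32 in cortex.

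Vcan, the proteoglycan versican of oligodendrocyte precursors and matrix, fell to 75.2% in striatum and had 100% in cortex (-0.41 ± 0.12, adjusted p = 0.0347), the only called gene of 12 in its list. Ccnd2, cyclin D2, rose to 114% in striatum and 142% in cortex (-0.32 ± 0.091, adjusted p = 0.0343). With the block the lists of immature neurons (Ccnd2) and of antigen presentation (H2-D1) had 2 called genes each, in place of 1. H2-D1, a class I histocompatibility gene with close relatives, fell to 77.1% in cortex and had 103% in striatum (0.41 ± 0.11, adjusted p = 0.0192). Cd72, named after its value was seen, had the largest called tissue difference (-3.80) at a mean level of 1.69 CPM.

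At an unadjusted p under 0.05 edgeR counted 2533 of all 16304 genes. Among further lists with no called tissue difference it counted 1 of 9 cholinergic neuron genes, 3 of 17 endothelial genes and 2 of 16 circadian clock genes. It counted none of 6 erythroid genes and none of 7 mitochondrially encoded genes. DESeq2 called no member of these lists. Limma-voom with a random replicate block called 1 circadian gene, and edgeR with the block called 2 endothelial genes and 1 circadian gene.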
